A study of Mus musculus with 6 samples.

Results

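The IFIT family (interferon-induced proteins with tetratricopeptide repeats) was represented by 5 genes, Ifit1, Ifit2, Ifit3, Ifit3b and Ifit1bl1, out of 22298 in the mRNA table. They were chosen by symbol, with their difference between si-METTL3 and si-NC already known, so that difference is given here as a description and is not tested. The cells were GC-1spg, immortalised mouse cells that stand in for type B spermatogonia, grown with 10% fetal bovine serum. The si-NC group (3 libraries) had received a control siRNA, although its treatment tag reads untreated. The si-METTL3 group (3 libraries) had received an siRNA against Mettl3, which encodes the catalytic subunit of the nuclear m6A writer. Both groups were transfected at 60% density and collected after 48 h, and no library of cells without siRNA is included. The labels print 1 and the same siRNA sequence for both groups, so the control sequence is not known, and they do not say whether replicates were separate cultures.

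IFIT genes are classical interferon-stimulated genes, barely transcribed at rest and switched on when interferon or viral RNA is sensed. Interferon acts through transcription factors, among them STAT2 and IRF9, that bind the interferon-stimulated response element (ISRE) in their promoters, and activated IRF3 and IRF7 can bind the same element directly. The proteins are chains of helical repeats that bind RNA or each other. IFIT1 recognises RNA whose cap lacks ribose methylation and blocks its translation, IFIT2 binds RNA and the translation machinery, and IFIT3 is an adaptor. Mouse Ifit3b is a copy of Ifit3, and Ifit1bl1 is an Ifit1-like gene.

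The 5 genes lie within 99.3 kb of chromosome 19 (34550694 to 34650009, GRCm38, GENCODE M21). Ifit2 (34550694 to 34576419), Ifit3 (34583531 to 34588731), Ifit3b (34607970 to 34613401) and Ifit1 (34640871 to 34650009) are on the plus strand, and Ifit1bl1 (34592891 to 34601956) is on the minus strand. The cluster holds 2 further annotated genes, the Ifit1-like gene Ifit1bl2 and a pseudogene. In Ifit1, Ifit3, Ifit3b and Ifit1bl1 the start codon sits in exon 1 and exon 2 carries nearly all of the transcript. Ifit2 differs in this. Its longest transcript has 3 exons, and the start codon is in exon 2, 19.5 kb downstream of the annotated transcript start. In Ifit1bl2 the start codon is also in exon 2, 10.9 kb from the start.

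The promoter windows of the members are shown because they carry the sequence through which the family is known to respond to interferon. Each runs 5′ to 3′ on the gene's own strand from 250 bases before to 50 bases after the start that RefSeq annotates (GRCm38.p6). Capitals mark each match to the ISRE core, which is GAAA, any 2 bases and GAAA again. It was searched on both strands and reads TTTC, any 2 bases and TTTC where it lies on the opposite strand.
Ifit1, chr19:34640639-34640938, plus strand: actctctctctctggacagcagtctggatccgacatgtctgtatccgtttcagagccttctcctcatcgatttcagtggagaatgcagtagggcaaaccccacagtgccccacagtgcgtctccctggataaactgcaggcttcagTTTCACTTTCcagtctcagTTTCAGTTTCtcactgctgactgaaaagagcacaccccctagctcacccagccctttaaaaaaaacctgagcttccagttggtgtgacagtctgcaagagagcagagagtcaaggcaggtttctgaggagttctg
Ifit3, chr19:34583279-34583578, plus strand: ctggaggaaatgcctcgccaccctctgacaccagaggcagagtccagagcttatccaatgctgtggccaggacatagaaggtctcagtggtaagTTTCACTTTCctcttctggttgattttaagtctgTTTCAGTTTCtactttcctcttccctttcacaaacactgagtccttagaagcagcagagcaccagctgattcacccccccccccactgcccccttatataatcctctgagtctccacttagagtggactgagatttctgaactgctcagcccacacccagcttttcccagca
Ifit3b, chr19:34607707-34608006, plus strand: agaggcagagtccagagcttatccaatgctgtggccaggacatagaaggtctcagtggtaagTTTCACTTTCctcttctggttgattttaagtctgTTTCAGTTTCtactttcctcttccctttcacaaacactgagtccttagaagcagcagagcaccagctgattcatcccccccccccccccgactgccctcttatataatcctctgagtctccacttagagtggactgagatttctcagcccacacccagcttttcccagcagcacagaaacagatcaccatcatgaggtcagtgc
Ifit1bl1, chr19:34601919-34602218, minus strand: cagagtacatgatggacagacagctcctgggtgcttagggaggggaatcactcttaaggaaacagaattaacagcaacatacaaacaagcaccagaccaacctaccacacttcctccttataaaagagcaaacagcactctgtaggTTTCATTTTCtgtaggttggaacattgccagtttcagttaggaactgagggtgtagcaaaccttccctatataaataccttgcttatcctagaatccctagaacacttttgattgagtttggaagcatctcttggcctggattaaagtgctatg
Ifit2, chr19:34550444-34550743, plus strand: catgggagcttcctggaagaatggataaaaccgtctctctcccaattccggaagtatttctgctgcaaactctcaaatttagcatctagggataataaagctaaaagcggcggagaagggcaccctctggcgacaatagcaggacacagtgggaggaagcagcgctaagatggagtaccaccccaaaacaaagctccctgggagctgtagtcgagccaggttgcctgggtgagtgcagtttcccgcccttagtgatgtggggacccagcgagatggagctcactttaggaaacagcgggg

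Of the 5 members, 4 held the core in at least 1 of their windows, against 3.99% of the 27025 genes in the promoter table. Ifit1, Ifit3 and Ifit3b each had 2 matches, all opposite to the direction of the gene. In Ifit1 they ran from 104 to 95 and from 85 to 76 bases before the start, in Ifit3 from 156 to 147 and from 122 to 113, and in Ifit3b from 188 to 179 and from 154 to 145. The 30 bases around the outer match were the same in Ifit3 and Ifit3b, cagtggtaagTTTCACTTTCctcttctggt, as were those around the inner one, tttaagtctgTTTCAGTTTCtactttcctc. Ifit1bl1 has 2 annotated starts with 1 match each. The matches of Ifit1 are shared with its divergent neighbour Ifit1bl2, since their windows overlap by 245 bases.

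Neither of the 2 windows of Ifit2 (chr19:34550444-34550743 and chr19:34550838-34551137) held the core. The first window spans the GENCODE transcript start at 34550694, and the second lies wholly downstream of that start. The sequence just before exon 2 was not used here, so the search says nothing about an element there. With 1 mismatch allowed, all 5 members had a match, but so did 38.9% of genes. Of 61 interferon-stimulated genes outside the family that the table holds, 30 (49.2%) had the exact core.

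**Figure D1:**
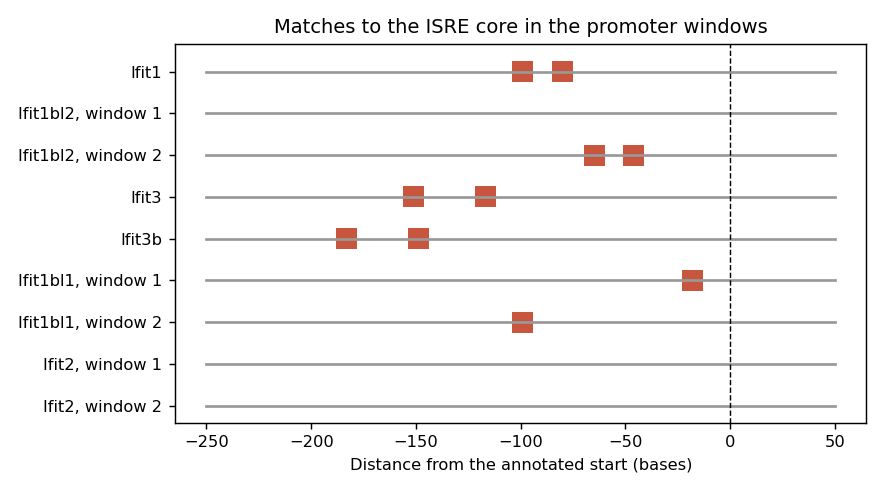
Positions of the ISRE core (red blocks, drawn to scale) in each 300-base promoter window of the 5 members and Ifit1bl2, with the distance in bases from the annotated start on the x axis (dashed line at 0). Ifit1, Ifit3 and Ifit3b have 2 blocks each, all within 188 bases before the start, and both Ifit2 windows are empty.

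The 6 libraries held 22146057 to 37698956 counts in the mRNA table. Mettl3, the targeted gene, had 606, 578 and 683 counts in si-NC, against 142, 134 and 136 in si-METTL3 (log2 fold change -1.79, SE 0.14). The labelled cell type was only partly borne out by germ line markers. Of 10 listed, Sohlh1 and Sall4 had 0 counts in every library, and Dazl had 1 count in all. Ddx4 had 1 to 7 per library, and Stra8 and Nanos3 had 0 to 3. Uchl1 was abundant, followed by Gfra1 (88, 78 and 118 counts in si-NC, against 140, 89 and 115 in si-METTL3). Kit had 17, 14 and 53 counts in si-NC, against 55, 36 and 53 in si-METTL3. Zbtb16 had 1, 2 and 35 in si-NC, against 18, 28 and 18 in si-METTL3. Both were thus lowest in si-NC 1 and 2. Markers of lung epithelium set libraries apart. Summed over 10 genes, led by Sftpc, Scgb1a1 and Slc34a2, they reached 3.50 and 2.06 CPM (counts scaled to a common library size) in si-NC 1 and 2, 62.3 in si-NC 3, and 97.7, 97.0 and 64.3 across the si-METTL3 libraries, although 0 of 9 tested passed edgeR's test. None of the 10 was at 0 throughout, but Sftpd and Scgb3a2 were at 0 in si-NC 1 and 2. The 9 leukocyte markers, led by Lyz2, Cd68 and Cd74, had sums of 5.74, 6.17 and 20.8 CPM for si-NC, against 28.8, 30.1 and 22.3 in si-METTL3. Blood markers (5 genes, led by Hbb-bs) moved in the same libraries, with sums of 0.448, 0.809 and 11.8 CPM for si-NC, against 19.1, 16.1 and 12.4 in si-METTL3. Endothelium markers (5 genes, led by Kdr, Pecam1 and Cdh5) had sums of 11.8, 13.4 and 17.3 CPM for si-NC, against 21.6, 20.0 and 18.2 in si-METTL3. Fibroblast markers (4 genes, led by Col1a1, Vim and Col1a2) had the highest sums of the marker lists. These were 2680, 2320 and 2640 CPM for si-NC, against 2460, 2250 and 2260 in si-METTL3, and 2 of the 4 passed the test. Sertoli cell markers (Wt1, Gata4, Sox9 and Amh) summed to more than the germ line ones, and 2 of the 4 passed the test. Their sum was 310 to 331 CPM in si-METTL3 against 227 to 240 in si-NC, but the 4 differed in direction. Wt1 was at 166, 163 and 168 CPM in si-NC, against 244, 271 and 256 in si-METTL3, and Sox9 was also higher. Gata4 was at 43.0, 37.8 and 41.9 CPM in si-NC, against 33.0, 29.3 and 31.7 in si-METTL3, and Amh was also lower. The part of these markers in the family's levels was not tested. In si-NC 3 the members stood at 76.7 (Ifit1), 22.6 (Ifit2), 59.6 (Ifit3), 53.2 (Ifit3b) and 1.82 CPM (Ifit1bl1).

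Across the family, 4 of 5 members were called lower in si-METTL3 and none higher, where 10.2% of 13082 tested genes were called lower and 8.67% higher (edgeR quasi-likelihood test over all genes, adjusted p under 0.05). The same 4, Ifit1, Ifit3, Ifit3b and Ifit1bl1, had every si-METTL3 library below every si-NC library, as did 21.3% of tested genes, while 20.2% had every si-METTL3 library above. Since the members were chosen with this difference known, nothing is read from either count. The exception was Ifit2. All 5 passed the filter on low counts, and their median log2 fold change was -3.10, against 0.03 over all tested genes. In these bulk libraries fewer cells transcribing a gene and less RNA per cell cannot be told apart.

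Ifit1, the cap-sensing member, stood at 79.7, 103.0 and 76.7 CPM in si-NC 1 to 3 (2795, 3097 and 2817 counts). In si-METTL3 it stood at 8.73, 12.0 and 9.53 CPM (279, 270 and 235 counts). The lowest si-NC library was 6.38-fold above the highest si-METTL3 library. The log2 fold change was -3.10 (SE 0.17), an 8.57-fold difference.

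Ifit3, the adaptor, was at 47.5, 37.7 and 59.6 CPM in si-NC, against 2.44, 2.99 and 2.03 in si-METTL3. The groups were separated by 12.6-fold at their nearest libraries, and the log2 fold change was -4.28 (SE 0.23). Its copy Ifit3b was at 48.3, 48.5 and 53.2 CPM in si-NC, against 1.75, 2.94 and 1.78 in si-METTL3. This was the largest difference in the family, with a log2 fold change of -4.55 (SE 0.21), or 23.4-fold. The highest si-NC library was 1.10 times the lowest for Ifit3b and 1.58 times for Ifit3.

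How far Ifit3 and Ifit3b can be told apart depends on how the authors' counting shared reads. Their coding sequences were 99.1% identical over 1209 bases, and 51.2% of all stretches of 50 bases in the Ifit3 transcript occurred in a transcript of another gene, as did 45.0% of those in Ifit3b. For stretches of 100 bases the shares were 31.7% and 27.4%. The ratio of Ifit3 to Ifit3b counts was 0.982, 0.777 and 1.12 in si-NC, against 1.39, 1.02 and 1.14 in si-METTL3, so it overlapped between the groups. With the counts of both genes summed, the log2 fold change was -4.41. The sum does not depend on how reads were split between Ifit3 and Ifit3b, but it would miss shared reads that were not counted.

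Ifit1bl1, the Ifit1-like gene, was far less abundant. It had 67, 42 and 67 counts in si-NC, against 13, 12 and 7 in si-METTL3, equal to 1.91, 1.39 and 1.82 CPM and to 0.407, 0.535 and 0.284 CPM. The groups did not overlap, and the log2 fold change was -2.06 (SE 0.32). Its coding sequence was 87.4% identical to that of Ifit1bl2 and 74.0% to that of Ifit1, with 6.60% of its stretches of 50 bases found in another gene. On the log2(FPKM + 1) scale, which understates the change of low genes, limma gave -0.50 for Ifit1bl1, -3.42 for Ifit3 and -3.51 for Ifit3b.

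Ifit2 was the member whose groups overlapped. It was at 25.1, 47.4 and 22.6 CPM in si-NC (882, 1429 and 828 counts) and at 22.2, 36.9 and 35.5 in si-METTL3 (709, 827 and 876 counts). Neither group was the higher: si-NC 2 was the highest library of all and si-METTL3 1 the lowest. The log2 fold change was -0.008 (SE 0.32), and it lay between -0.23 (without si-NC 3) and 0.40 (without si-NC 2) when 1 library was left out. None of the 50-base stretches of Ifit2 occurred in another gene, so no 50-base read of it is shared with another annotated transcript.

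**Figure D2:**
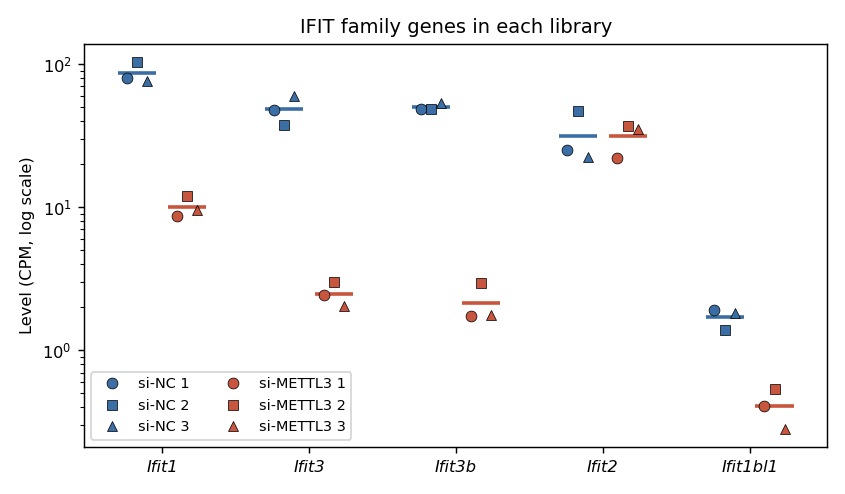
Level of each member in each library in CPM on a log axis, with si-NC in blue, si-METTL3 in red, a marker shape for each replicate number and a bar at the group mean. The groups are apart for Ifit1, Ifit3, Ifit3b and Ifit1bl1 and overlap for Ifit2.

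The spread of Ifit2 within the groups followed single libraries. In si-NC 2 it was 1.99 times the mean of si-NC 1 and 3, a ratio that 5.95% of tested genes reached. In si-METTL3 1 it was 0.613 times the mean of the other 2 si-METTL3 libraries, as low as in 5.24% of tested genes. In si-NC 2 the same ratio was 1.31 for Ifit1, 0.704 for Ifit3, 0.955 for Ifit3b and 0.746 for Ifit1bl1. In si-METTL3 1 it was 0.810 for Ifit1, 0.974 for Ifit3, 0.741 for Ifit3b and 0.994 for Ifit1bl1. Ifit1 thus also had its highest level in si-NC 2 and its lowest in si-METTL3 1, by smaller ratios than Ifit2. The difference between Ifit2 and the member nearest to it in fold change was 2.06 on the log2 scale over all libraries, and 1.76 to 2.59 when 1 library was left out. That nearest member was Ifit1bl1. With limma on log2(FPKM + 1) the difference was 0.52, since the pseudocount shrinks the change of Ifit1bl1.

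On the FPKM scale, which divides by transcript length and so allows genes to be compared, the order of the members differed between the groups. In si-NC, Ifit1 (26.6 ± 4.76 FPKM, SD, n = 3), Ifit3 (22.6 ± 4.86) and Ifit3b (20.4 ± 0.932) were the highest. Ifit3 overlapped with both of the others, while the lowest Ifit1 value (23.34) was above the highest Ifit3b value (21.48). Ifit2 (7.22 ± 3.42) lay below them in every library, and Ifit1bl1 (0.637 ± 0.0945) was the lowest. In si-METTL3, Ifit2 (7.05 ± 1.79 FPKM) was above Ifit1 (3.14 ± 0.533) in every library. Ifit3 (1.18 ± 0.230) and Ifit3b (0.897 ± 0.280) followed and overlapped, and Ifit1bl1 (0.157 ± 0.0451) was again the lowest.

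Summed over the 5 members, the level was 72.6, 81.8 and 78.0 FPKM in si-NC, against 9.82, 14.8 and 12.6 in si-METTL3. Ifit2 supplied 7.66%, 13.6% and 6.34% of this sum in si-NC, against 50.8%, 55.5% and 62.7% in si-METTL3. The share of Ifit3 and that of Ifit3b were correspondingly smaller in si-METTL3, at 7.51% to 12.0% and 5.77% to 8.24%, against 21.9% to 35.4% and 24.6% to 27.5% in si-NC. For Ifit1 the shares were nearer, 29.9% to 39.2% in si-NC, against 23.2% to 28.0% in si-METTL3. These shares restate the levels above and were not tested.

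**Figure D3:**
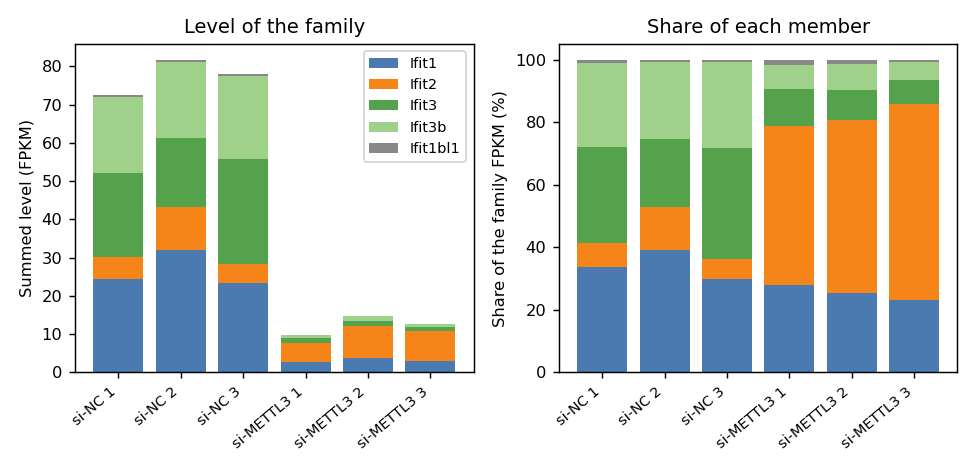
Summed FPKM of the 5 members (left) and the share of each member in that sum in percent (right) for each library. The total is 72.6 to 81.8 FPKM in si-NC, against 9.82 to 14.8 in si-METTL3, where Ifit2 makes up 50.8% to 62.7%.

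The genes whose profile over the 6 libraries was nearest to each member were sought by the Euclidean distance between log2 CPM values centred on each gene's mean. The distance includes the difference between the groups, so for the 4 lower members it largely finds genes of similar fold change. Their nearest genes were mostly ones known to respond to interferon. For Ifit3 they were the oligoadenylate synthetase gene Oas1a (distance 0.27), Usp18 (0.48), which encodes the protease that removes ISG15, and the dynamin-like GTPase gene Mx2 (0.51). For Ifit3b they were Oas2 (0.27), Usp18 (0.60) and Oas1a (0.62). Ifit3 and Ifit3b were 0.61 apart from each other.

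For Ifit1 the nearest were Mndal (0.49), Xaf1 (0.49) and the guanylate-binding protein gene Gbp3 (0.54). For Ifit1bl1 they were Oasl1 (0.42), Lgals3bp (0.43) and the chemokine gene Cxcl10 (0.46). For Ifit2 they were Pnn (0.12) and Dnttip2 (0.12), which encode nuclear proteins, and Phf11c (0.13). Pnn was at 42.9, 74.7 and 37.9 CPM in si-NC, against 38.5, 59.6 and 57.1 in si-METTL3, so that its highest library was si-NC 2, as for Ifit2, and its lowest was si-NC 3, where that of Ifit2 was si-METTL3 1. These likenesses cover 6 libraries in 2 groups and are a description.

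Beside the other interferon-stimulated genes, the members spanned nearly the whole range. Of 75 tested genes in a list of interferon-stimulated genes outside the family, 68 fell, 7 did not pass, and the median log2 fold change was -2.02. Over all tested genes 10.2% fell and 8.67% rose, with a median of 0.03. The list was drawn up with earlier results of these data known. A lower fold change than that of Ifit3b was seen in 1 of the 75 genes, than that of Ifit3 in 4, than that of Ifit1 in 19 and than that of Ifit1bl1 in 36. Ifit2 was at the other end, with 73 of 75 below it. The 7 that did not pass were Trim21 (log2 fold change -0.26), Slfn9 (-0.34), the RNA-activated kinase gene Eif2ak2 (-0.37), Psmb8 (-1.04), Oas1c (-1.40), Slfn5 (0.76) and Tnfsf10 (0.85). In si-NC the genes that did not pass had no pattern in common: Slfn9 was highest in si-NC 2 (2905, 6601 and 2878 counts), as was Eif2ak2 (2890, 5000 and 2468), and Trim21 was lowest there (239, 91 and 331), as was Slfn5 (24, 18 and 48).

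Among the genes that regulate IFIT transcription, 9 of 24 tested fell and 1 rose (median log2 fold change -0.32), where 10.2% of all tested genes fell and 8.67% rose (median 0.03). This count overlaps with the one above. Usp18, Ddx58, Dhx58, Irf7, Irf9, Stat2 and Ifih1, which fell, are also in the list of interferon-stimulated genes. The interferons themselves were too low to be tested. Of 10 listed, 6 had 0 counts in every library, which allows up to 3 counts in each, and Ifnb1 was counted 15, 6 and 12 times in si-NC, against 6, 4 and 3 times in si-METTL3. The 4 genes for the type I receptor and its kinases did not pass (edgeR adjusted p of 0.108 or more): Ifnar1 (0.12, SE 0.08), Ifnar2 (-0.25, SE 0.10), Jak1 (0.22, SE 0.08) and Tyk2 (0.17, SE 0.14).

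The transcription factor genes divided. Of 7 tested, 4 fell and 0 rose, where 10.2% of all tested genes fell and 8.67% rose. Irf9, which encodes a DNA-binding partner of STAT2, fell from 3105, 2239 and 3134 counts to 939, 621 and 646 (log2 fold change -1.58, SE 0.10, edgeR adjusted p = 0.000211), and Stat2 fell from 411, 230 and 496 counts to 104, 133 and 75 (-1.44, SE 0.32, edgeR adjusted p = 0.0232). Irf7, whose product amplifies the interferon response, fell by 3.38 on the log2 scale, and Irf1 fell by 0.50. Irf3, which is present before any interferon signal, was at 664, 421 and 622 counts in si-NC, against 520, 361 and 460 in si-METTL3 (0.03, SE 0.14), and Irf2 (0.04, SE 0.08) and Irf5 (-0.40, SE 0.15) did not pass either. The call of Stat2 was lost without si-NC 1, si-NC 3, si-METTL3 1 or si-METTL3 3 (edgeR adjusted p = 0.0806, 0.0565, 0.0684 and 0.0888) and that of Irf1 without si-METTL3 3 (edgeR adjusted p = 0.0537).

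Of 10 sensors and adaptors, 3 fell and 0 rose, where 10.2% of all tested genes fell and 8.67% rose. The 3 were the genes of the RIG-I-like receptor family: Ddx58 (log2 fold change -1.85, SE 0.07), Dhx58 (-2.83, SE 0.14) and Ifih1 (-1.17, SE 0.30). The adaptor gene Mavs (-0.13, SE 0.09), the kinase gene Tbk1 (0.14, SE 0.14), Sting1 (-0.39, SE 0.11) and the other 4 did not pass. Among the negative regulators, Usp18 (-4.55, SE 0.17) and Socs1 (-1.55, SE 0.25) fell, and Socs3 (0.57, SE 0.11) rose. The call of Ifih1 was lost without si-NC 1 or any 1 si-METTL3 library (edgeR adjusted p = 0.0693, 0.0946, 0.111 and 0.0911), and that of Socs3 without si-METTL3 2 or 3 (edgeR adjusted p = 0.056 and 0.0564).

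**Figure D4:**
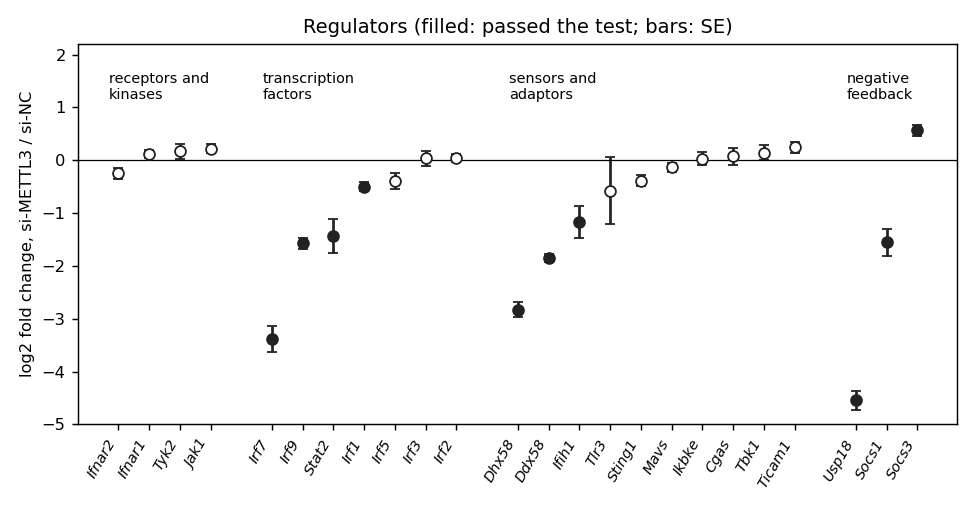
Log2 fold change (si-METTL3 over si-NC) of the 24 tested regulators of IFIT transcription by role, with bars for the SE and filled points for genes that passed edgeR's test. The receptor and kinase genes lie near 0, and the lowest points are Usp18 (-4.55) and Irf7 (-3.38).

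The genes around the cluster on chromosome 19 were compared to see how far the difference reached. Inside it, Ifit1bl2, the Ifit1-like gene that faces Ifit1, fell from 109, 100 and 85 counts to 8, 5 and 11 (log2 fold change -3.24, SE 0.33, edgeR adjusted p = 0.0019). Outside, the 12 nearest protein-coding genes, 6 on each side, gave 9 tested genes, of which 6 fell and 1 rose, where 10.2% of all tested genes fell and 8.67% rose. These tested genes lay from 23.2 kb (Lipa) to 1433.7 kb (Rpp30) and 1462.0 kb (Ankrd1) away, so not all are close to the cluster. Ch25h, the cholesterol 25-hydroxylase gene 75.5 kb before the cluster and itself known to respond to interferon, fell from 17, 28 and 20 counts to 3, 4 and 3 (-2.30, SE 0.49, edgeR adjusted p = 0.0208).

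Lipa, the lysosomal acid lipase gene that lies nearest to Ifit2 at 23.2 kb, fell by 0.35 on the log2 scale. Stambpl1 (-0.62), Pank1 (-0.80), Ankrd1 (-0.71) and Rpp30 (-0.32) also fell, Acta2 (0.70) rose, and Fas (-0.29, SE 0.17) and Kif20b (-0.12, SE 0.35) did not pass. The fold changes of the tested genes outside the cluster were between those of Ifit2 and Ifit1bl1, except that of Ch25h, which was below both, and that of Acta2, which was above both. Including Ifit1bl2, 7 of 10 fell, and this count was 4 without si-NC 1, 3 without si-METTL3 1, 2 without si-METTL3 2 and 3 without si-METTL3 3. The calls of Ifit1bl2 and Ankrd1 held in all 6 of these fits, those of Pank1 in 4, Stambpl1 in 3, Acta2 in 2 and Lipa and Rpp30 in 1, and that of Ch25h in 3, with edgeR adjusted p up to 0.0897 without si-METTL3 3.

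**Figure D5:**
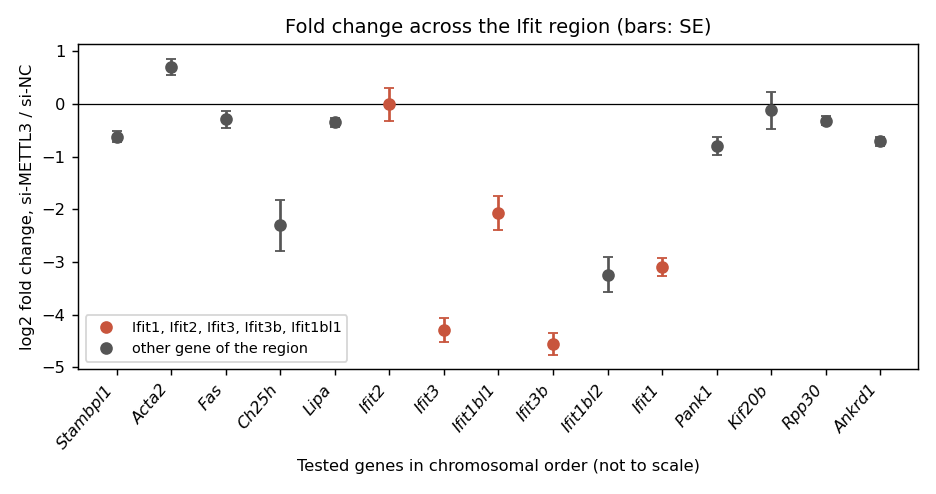
Log2 fold change (si-METTL3 over si-NC) of the tested genes of the region in chromosomal order, members in red and others in grey, with bars for the SE. Ifit2, at the left end of the cluster, lies at -0.008, and the genes between it and Pank1 lie between -4.55 and -2.06.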

How the data were processed

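RNA from 6 libraries was sequenced. The authors deposited counts and FPKM values per gene in an mRNA table and counts per transcript in a lncRNA table, per the file headers. The submitters' processing notes name RSEM, StringTie, Bowtie2 and fastp and the build mm9, without roles or versions. The sources used here do not give how reads shared by paralogs were divided. FPKM values are divided by transcript length and library total. None of the 8 GENCODE M21 transcripts of the 6 Ifit genes was in the lncRNA table.

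Counts of all genes were fitted with edgeR 4.0.16 in R 4.3.3 (TMM, filterByExpr, quasi-likelihood test of the group, Benjamini-Hochberg over 13082 genes, threshold 0.05), after a test on simulated data. CPM uses TMM-scaled library sizes, except for marker genes and their sums, which use the total count. The SE was taken from the fold change and the F statistic (log2 fold change over root F). P-values measure the spread between these libraries, which may be technical. Alternatives were DESeq2 1.42.0, limma 3.58.1 on log2(FPKM + 1), other filters and scalings, a replicate block and leaving out each library.

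Gene models came from GENCODE M21 (GRCm38) and promoters from RefSeq (GRCm38.p6), where all 5 members were found. No coordinate was converted from mm9. Coding sequences were aligned end to end with Biopython 1.88, and figures were drawn with matplotlib 3.10.9. Members and lists were chosen with earlier results of these data known, and 2 listed regulators, Sting1 and Cgas, were respelled to the symbols of the table after it had been read. Named were all members, called genes of the regulator, cap and neighbour lists with up to 6 others each, the 3 nearest profiles per member, the interferon-stimulated genes that did not pass, and the top 3 markers of a list. The receptor, kinase and further regulator genes that did not pass were named after their values were seen. So were the germ line, lung epithelium and Sertoli cell markers outside the top 3 of their lists. A gene of the regulator and interferon lists is not reported here and was left out of their counts.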

Additional observations from a re-analysis of the deposited data

How the results depend on the processing

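With limma on log2(FPKM + 1) the log2 fold changes were -2.73 for Ifit1, -3.42 for Ifit3, -3.51 for Ifit3b and -0.50 for Ifit1bl1, since the pseudocount shrinks low genes. In the fits on counts they stayed within the spread between replicates. When 1 library was left out they ranged from -3.24 to -2.96 for Ifit1, -4.44 to -4.13 for Ifit3, -4.82 to -4.43 for Ifit3b, -2.28 to -1.87 for Ifit1bl1 and -0.23 to 0.40 for Ifit2, and the sign of the Ifit2 value differed between settings. Deviations of same-numbered libraries from their group means correlated at 0.07, 0.20 and -0.31 across genes, against -0.395 to 0.337 for the other pairs. With 3 libraries per group these values cannot settle whether the replicate numbers pair the samples. With a replicate block 1273 genes were called in place of 2468, the members' values moved by less than the spread, 3 cap and eIF3 genes were lower and 0 higher, and 0 neighbours were higher. Limma also left 0 cap and eIF3 genes higher. Leaving out 1 library gave 665 (without si-METTL3 3) to 4917 (without si-NC 2) called genes, 1 to 11 cap and eIF3 genes lower and 0 to 2 higher, 2 to 7 neighbours lower and 0 to 1 higher, 6 to 13 regulators lower and 0 to 2 higher, and 60 to 68 interferon-stimulated genes outside the family lower. The 7 to 13 counts of Ifit1bl1 in si-METTL3 limit its precision, as do 3 libraries per group throughout.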

Other observations

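IFIT proteins act on capped RNA and on translation initiation. Genes whose products build, remove or bind the cap were therefore listed as well. So were the subunits of eIF3, which mouse IFIT1 and IFIT2 are known to bind. Of 8 cap genes, 2 fell and 0 rose, where 10.2% of all tested genes fell and 8.67% rose. Both encode cap ribose methyltransferases. Cmtr1, itself known as an interferon-stimulated gene, had 7647, 5688 and 7642 counts in si-NC, against 4302, 2660 and 3126 in si-METTL3 (log2 fold change -0.69, SE 0.08, edgeR adjusted p = 0.00335), and its call held in all 6 fits that left out a library. Cmtr2 fell by 0.52 on the log2 scale, a call that held in 3 of the 6, with edgeR adjusted p up to 0.0952 without si-METTL3 2. Rngtt (0.23), Rnmt (0.25), Ramac (0.23), Pcif1 (-0.01), Dcp2 (-0.29) and Eif4e (-0.16) did not pass.

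Of 14 eIF3 genes, 4 fell by small amounts, Eif3d by 0.55, Eif3g by 0.40, Eif3l by 0.29 and Eif3m by 0.26 on the log2 scale, and Eif3j1 rose by 0.74. Over all tested genes 10.2% were lower and 8.67% higher, with a median of 0.03. Over cap and eIF3 genes together 6 of 22 fell and 1 rose, with a median of -0.14. The number that fell was 2 without si-NC 1, 11 without si-NC 2, 1 without si-METTL3 2 and 1 without si-METTL3 3. The calls of the eIF3 genes held in 1 to 4 of the 6 fits.

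The pentamer GGACT, a common form of the m6A consensus, occurred 4 times in the Ifit2 transcript, 2 times in Ifit1, 2 times in Ifit1bl1, 1 time in Ifit3 and not at all in Ifit3b. Per kilobase this was 1.05 in Ifit2, equal to the median of 1.05 over 13014 tested genes with a coding transcript, and 0.909, 0.753, 0.573 and 0 in Ifit1bl1, Ifit1, Ifit3 and Ifit3b. The libraries do not measure m6A, and these counts describe the sequence alone.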
